A study of Mus musculus with 10 samples.

Results

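The chromatin of 44 genes of cell proliferation was followed in regulatory T cells (Tregs) with and without Vps34, the lipid kinase encoded by Pik3c3. Open chromatin was measured by ATAC-seq, which tags accessible DNA with sequencing adaptors carried by the Tn5 transposase. A peak belonged to a gene when it lay within 1 kb of an annotated transcript start or overlapped the gene body. By this rule 146 of the 97385 peaks counted in the study belonged to 43 of the 44 genes, and 145 of them held enough counts to be tested, out of 97109 tested peaks in all. No peak met the rule for Rrm2, a subunit of ribonucleotide reductase. The peak left untested lies in an intron of Rb1. All mice were 10 days old, on the C57BL/6 background, and carried a YFP-Cre fusion driven from Foxp3, the gene that defines the Treg lineage. Vps34-deficient Tregs came from mice in which both copies of Pik3c3 were floxed, and control Tregs came from Foxp3-Cre mice with the genotype Pik3c3+/+ or Pik3c3+/fl, so the controls also expressed Cre and could have lost 1 copy. Total Tregs were sorted by their YFP reporter, which gave 2 control and 4 Vps34-deficient libraries from spleen and 2 libraries of each genotype from lung. The labels do not say which libraries came from separate animals, so the p-values measure the spread between these libraries.

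Cells enter the cycle when cyclin D with Cdk4 or Cdk6, and then cyclin E with Cdk2, phosphorylate the pocket proteins Rb1 and Rbl1, which releases E2F factors. E2F factors switch on the genes that license and copy DNA, and a later wave of genes for mitosis is controlled through the CHR element and nearby CCAAT boxes bound by NF-Y. Cdkn1a, Cdkn1b, Cdkn2c and Cdkn2d encode inhibitors of the cyclin-dependent kinases. Part of the Treg pool cycles even in the steady state, and Tregs in peripheral tissues are enriched for activated cells.

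The promoters of these genes were searched for the elements of both waves. Promoter sequences of 300 bases, running from 250 bases before to 50 bases after the start, were taken from RefSeq (GRCm38.p6) and matched 35 of the 44 genes. An E2F element, searched as TTTCCCGC or TTTGGCGC on both strands, was found in 22.9% of the 35 promoters and in 1.56% of 32851 RefSeq promoters. It was in 5 of 8 promoters of replication genes and in 0 of 11 promoters of mitotic genes. The CHR element TTTGAA was in 34.3% of the 35 promoters, against 17.9% of all promoters, and in 8 of 11 promoters of mitotic genes. The 4 promoters of kinase inhibitors held neither element, and the 5 of G1 cyclins and kinases held 1 with E2F and 0 with CHR. CCAAT was in 71.4% of the 35 promoters, against 37.4%, and in 10 of 11 of the mitotic ones. The E-box CACGTG was in 5.71% against 7.15%, with 4 matches in the promoter of Cdk4 and 1 in that of Cdk6. The AP-1 sequence TGANTCA was in 0 of 35, against 7.81%. None of these motifs contains another, and a match is a run of letters, not a measured binding site. The GC content of the 35 promoters was 63.3% (median), against 52.7% for all promoters. The 150 bases upstream of the start are shown for 4 genes that differ in these elements, with E2F, CHR and CCAAT matches on either strand in capitals, each read along the strand of its gene. Mki67 and Cdk1 have 2 CHR matches each, Mcm6 has 2 E2F matches, and E2f3 has all 3 elements.
Mki67, chr7:135716380-135716529, minus strand: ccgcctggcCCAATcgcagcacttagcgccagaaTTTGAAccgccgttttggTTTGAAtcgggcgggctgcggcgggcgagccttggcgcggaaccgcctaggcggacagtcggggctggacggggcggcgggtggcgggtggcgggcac
Cdk1, chr10:69352913-69353062, minus strand: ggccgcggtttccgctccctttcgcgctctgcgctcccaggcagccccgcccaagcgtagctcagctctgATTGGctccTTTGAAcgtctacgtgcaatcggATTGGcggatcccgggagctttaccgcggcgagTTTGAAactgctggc
Mcm6, chr1:128359706-128359855, minus strand: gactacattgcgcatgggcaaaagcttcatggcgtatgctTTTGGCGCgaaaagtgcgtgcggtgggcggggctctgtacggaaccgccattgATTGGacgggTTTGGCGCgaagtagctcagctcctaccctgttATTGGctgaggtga
E2f3, chr13:29986064-29986213, minus strand: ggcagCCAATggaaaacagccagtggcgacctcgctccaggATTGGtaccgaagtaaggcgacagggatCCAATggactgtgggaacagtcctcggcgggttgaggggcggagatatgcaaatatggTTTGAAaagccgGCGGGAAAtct

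The 11 peaks that passed the genotype test described below lie inside genes, over 1 kb from a start. No tested peak of the set within 1 kb of a start passed it. The share passing among all tested peaks within 1 kb of a coding start was also low, at 0.561% in spleen and 2.79% in lung. Several of the 11 hold an AP-1 sequence, the element that Jun, Fos and Batf dimers bind, and others do not. The plus strand is shown around the AP-1 match of 4 that were picked for holding one, with the match in capitals. The values at each of these sites follow further on.
Cdk6 intron, chr5:3466438-3466538: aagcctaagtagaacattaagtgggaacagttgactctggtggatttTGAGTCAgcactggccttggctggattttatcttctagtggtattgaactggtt
Cdk6 intron, chr5:3494479-3494579: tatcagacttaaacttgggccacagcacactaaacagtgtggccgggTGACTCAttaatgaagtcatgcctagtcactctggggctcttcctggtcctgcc
Ccnd3 intron, chr17:47564699-47564799: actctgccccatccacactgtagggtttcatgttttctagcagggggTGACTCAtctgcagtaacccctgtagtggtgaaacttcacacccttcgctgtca
Cdkn1a intron, chr17:29095181-29095281: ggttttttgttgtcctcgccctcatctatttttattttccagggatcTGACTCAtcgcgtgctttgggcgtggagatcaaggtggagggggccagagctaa

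Total counts per library ran from 9405823 to 22439699, with a median of 32 to 72 counts per peak. Levels are given as CPM, that is counts scaled to library sizes corrected with TMM factors. The labelled cell type was checked by the summed CPM of peaks at marker genes. All 6 Treg and T cell markers had peaks, 86 in all with 46 at Ikzf2, and summed to between 721 and 1030 CPM in every library. The lists differ in their number of peaks, so their sums can be compared between libraries but not with each other. Myeloid markers, of which 3 of 5 had a peak (3 peaks), summed to 12 to 14.2 CPM in spleen and 20.8 to 28.1 CPM in lung. Markers of lung epithelium and endothelium, 4 of 5 with a peak (24 peaks), summed to 156 to 183 CPM in spleen. They summed to 211 to 239 CPM in lung control and 165 to 190 CPM in lung Vps34-deficient libraries. Most of this came from Pecam1, and Sftpc had no peak. B cell markers (3 of 5 with a peak, 10 peaks) summed to 34.7 to 44.3 CPM and erythroid markers (5 of 5, 11 peaks) to 40.5 to 58.8 CPM. CD8 and NK cell markers (4 of 5, 7 peaks) summed to 29.7 to 49.7 CPM. In lung, CD8 and NK cell markers summed to 29.7 to 34.9 CPM in controls and 41.9 to 49.7 CPM without Vps34, and erythroid markers to 40.5 to 40.8 CPM and 41.8 to 50.6 CPM. Myeloid markers were thus higher in all lung than in all spleen libraries. In lung the genotypes did not overlap for the lung epithelium and endothelium, CD8 and NK cell, and erythroid lists. With 2 libraries of each genotype, groups that do not differ can also fail to overlap. Pecam1 had a mean of 173 CPM in lung controls and 126 CPM in Vps34-deficient lung, and Cdh5 and Nkx2-1 were also lower. Epcam went the other way, at 41.2 and 43.3 CPM. The part of these markers in the results below was not tested. In bulk libraries a change in the share of a Treg state and a change within each cell cannot be told apart. Of the 4 tested peaks of Pik3c3 itself, 0 were called in spleen or in lung. This does not check the labels, because the positions of the floxed exons are not given in the sources used here and accessibility is not a measure of deletion.

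The main start peak of each gene, the one with the highest mean count within 1 kb of a start, was open in every library and differed little between groups. The 43 main start peaks had a median of 60.6 CPM per kb, against 22.2 CPM per kb for 19980 tested peaks within 1 kb of a protein-coding start, and 39 of 43 were above that median. Per kb, the most open was E2f3 at 181 CPM per kb, followed by E2f7 at 157 and Ccna2 at 143, and the least open were Rbl1 at 13.6, Cdkn1a at 15.5 and Plk1 at 16.7 CPM per kb. The SD of log2 CPM over all 10 libraries was 0.12 (median over genes), against 0.23 for all peaks at coding starts. The median level of those peaks, 13.3 CPM, was below the 47.5 CPM of these start peaks. These comparisons are not like for like, because each main start peak was picked as the highest of its gene and the 19980 peaks were not. Without that choice, all 69 tested peaks of the set within 1 kb of a start had a median of 28.3 CPM. None of the 43 was called, at an adjusted p below 0.05 with an absolute log2 fold change above 0.5 (the quasi-likelihood test of edgeR, with p-values adjusted by Benjamini-Hochberg across all tested peaks), for genotype in spleen, in lung or averaged over tissues, or for tissue. The share called in either direction among all peaks at coding starts was 0.561% in spleen, 2.79% in lung, 2.93% on average and 9.48% for tissue. Over the 43 start peaks, an unadjusted p below 0.05 was reached by 2 in spleen, 5 in lung, 4 on average and 7 for tissue, and DESeq2 called 0 in each. The 95% interval of the log2 fold change stayed within 0.5 either side of 0 for 40 of 43 genes in spleen, 32 in lung, 42 on average and 40 for tissue, and within 1 for all 43 in each.

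**Figure D1:**
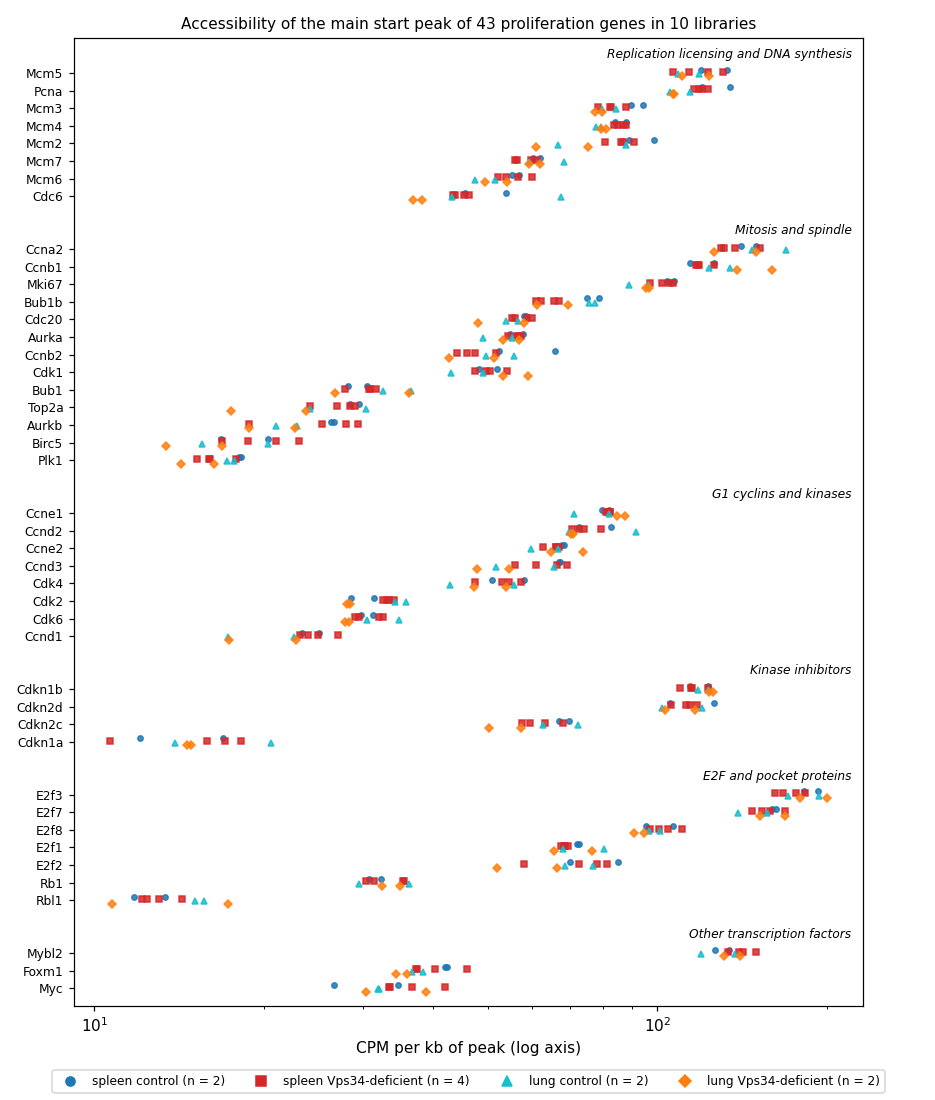
Accessibility of the main start peak of 43 proliferation genes, in CPM per kb of peak on a log axis, with 1 point per library and the 4 groups marked by colour and shape. Genes are grouped by role, and the 10 libraries of a gene lie close together compared with the spread between genes, from 13.6 CPM per kb for Rbl1 to 181 CPM per kb for E2f3.

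Genes of replication licensing and DNA synthesis had start peaks with a median of 82.8 CPM per kb (8 genes). Their log2 fold change without Vps34 had a median of -0.09 in spleen and -0.05 in lung, against -0.01 and -0.06 for all peaks at coding starts. Pcna, the sliding clamp of the replicative polymerases, gave 122 and 136 CPM in spleen control libraries, compared with 117, 122, 120 and 125 CPM in Vps34-deficient spleen. In lung it gave 107 and 116 CPM in controls and 108 and 108 CPM without Vps34, so the genotypes overlapped in each tissue. Mcm5, a subunit of the Mcm2-7 helicase, had a log2 fold change of -0.09 ± 0.10 (SE) in spleen and 0.04 ± 0.12 in lung, and Mcm6, whose 2 E2F matches are printed above, -0.01 ± 0.10 and 0.07 ± 0.11. Cdc6, which loads the helicase onto origins, had a log2 fold change of -0.57 ± 0.17 in lung, the largest of the main start peaks with all libraries in the fit. Its lung controls differed, at 22.2 and 34.7 CPM, and its Vps34-deficient lung libraries gave 19.0 and 19.7 CPM, below both. The adjusted p for Cdc6 in lung was 0.0573 in edgeR's quasi-likelihood test, which misses the threshold. The value rests on the lung controls, at -0.17 without lung control replicate 2 and -0.74 without replicate 1, where it was called, as it was with no count filter.

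Start peaks of genes of mitosis and the spindle had a median of 50.6 CPM per kb (13 genes), and their median log2 fold change was -0.04 in spleen and -0.13 in lung. Mki67, the marker of cycling cells, gave 63.4 and 65.1 CPM in spleen controls and 62.0, 63.9, 59.2 and 65.0 CPM in Vps34-deficient spleen. In lung it gave 54.3 and 58.7 CPM in controls and 58.0 and 59.0 CPM without Vps34. The genotypes overlapped in both tissues, with a log2 fold change of -0.04 (95% interval -0.22 to 0.14) in spleen and 0.05 (-0.16 to 0.26) in lung. Top2a, which untangles replicated DNA, had a log2 fold change of -0.09 ± 0.15 in spleen and -0.40 ± 0.19 in lung, where the adjusted p was 0.221 (edgeR) and leaving out Vps34-deficient replicate 2 gave -0.14, replicate 1 -0.56. Cdk1, the kinase that drives entry into mitosis, went the other way in lung, at 0.28 ± 0.11 with an adjusted p of 0.147. Bub1b, a kinase of the spindle checkpoint, gave 42.2 and 44.4 CPM in spleen controls and 34.9, 37.7, 34.3 and 36.9 CPM in Vps34-deficient spleen. In lung it gave 42.5 and 43.6 CPM in controls and 34.4 and 39.0 CPM without Vps34. Every Vps34-deficient library of Bub1b lay below every control of its tissue, and the average log2 fold change of -0.25 ± 0.08 had an adjusted p of 0.0367 (edgeR's quasi-likelihood test) but did not reach the fold change minimum.

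Among the G1 cyclins and kinases, the main start peaks of Cdk6 and Ccnd3 matter because other peaks of both genes changed. The Cdk6 start peak gave 37.8 and 39.8 CPM in spleen controls, 37.5, 41.5, 40.7 and 36.9 CPM in Vps34-deficient spleen, 44.3 and 38.9 CPM in lung controls and 35.4 and 36.0 CPM in Vps34-deficient lung. Its log2 fold change was 0.01 ± 0.10 in spleen and -0.22 ± 0.12 in lung, where the groups did not overlap but the value was -0.01 without lung control replicate 1. The Ccnd3 start peak had a log2 fold change of -0.09 ± 0.11 in spleen and -0.20 ± 0.14 in lung, where it was 0.02 without lung control replicate 2. Over the 8 genes of this role the median was -0.01 in spleen and -0.10 in lung. The start peaks of the kinase inhibitors ranged from Cdkn1a, the p53 target p21, at 15.5 CPM per kb, to Cdkn1b, which encodes p27, at 119 CPM per kb. Cdkn1b gave 85.1 and 91.6 CPM in spleen controls, 81.8, 91.4, 85.4 and 85.8 CPM in Vps34-deficient spleen, 91.5 and 87.9 CPM in lung controls and 92.0 and 93.5 CPM in Vps34-deficient lung, so the genotypes overlapped in spleen and, without overlap, lay between 87.9 and 93.5 CPM in lung. Over the 4 inhibitors the median log2 fold change was -0.04 in spleen and -0.13 in lung. Cdkn2c, an inhibitor of Cdk4 and Cdk6, had a log2 fold change of -0.33 ± 0.13 in lung with an adjusted p of 0.140 (edgeR), and -0.17 without lung Vps34-deficient replicate 2.

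The E2F and pocket protein genes had a median of 70.9 CPM per kb over 7 start peaks, and their median log2 fold change was -0.04 in spleen and -0.06 in lung. E2f3, the most open, gave 115 and 122 CPM in spleen controls, 102, 116, 106 and 111 CPM in Vps34-deficient spleen, 108 and 122 CPM in lung controls and 127 and 113 CPM in Vps34-deficient lung, and the genotypes overlapped in both tissues. E2f7, a repressor in the same family, had a log2 fold change of -0.04 ± 0.07 in spleen and 0.12 ± 0.09 in lung. The Rb1 start peak changed by 0.07 ± 0.11 and 0.03 ± 0.12. Of the 3 other transcription factors, Myc, which drives growth and cycle entry, had a log2 fold change of 0.26 ± 0.14 in spleen and 0.12 ± 0.16 in lung, with adjusted p of 0.400 and 0.718 (edgeR), and leaving out spleen control replicate 1 took the spleen change to 0.04. For 5 genes the start peak also lies within 1 kb of the start of another protein-coding gene (Aurka with Cstf1, Cdk2 with Pmel, Foxm1 with Rhno1, Mcm4 with Prkdc and Mcm7 with Ap4m1), and the counts cannot be split between them.

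The peaks that passed the test for genotype lay in gene bodies. Of the 145 tested peaks, 69 lie within 1 kb of a start and 76 in the body farther from a start. In spleen, 2 of 145 were called lower and 0 higher without Vps34, where 1.02% and 0.44% of all tested peaks were called. In lung, 10 of 145 were called lower and 0 higher, where 3.74% and 1.22% of all tested peaks were. Averaged over tissues, 9 were called lower and 1 higher, against 4.05% and 3.52% of all tested peaks. Counting both directions, the share among the 76 body peaks was 2.63% in spleen and 13.2% in lung, against 1.7% and 5.53% of 77129 tested peaks over 1 kb from a coding start. The body peaks are deeper than those others, with a median of 5.48 CPM against 2.67 CPM, and 5 of the 10 lung calls are in a single gene, Cdk6, so the shares were not tested against each other. By role, the 57 peaks of G1 cyclins and kinases held 2 spleen calls and 6 lung calls, the 35 of E2F and pocket proteins 2 lung calls, and the 21 of mitosis and the 10 of kinase inhibitors 1 each, while the 15 of replication genes and the 7 of other transcription factors held none. Both spleen calls were shared with lung, and all 9 called lower on average were called lower in lung. The lung count rests on 2 libraries per genotype. It was 3 without lung control replicate 2, 5 without lung Vps34-deficient replicate 1, 4 without lung Vps34-deficient replicate 2 and 5 in a fit of the lung libraries alone. The spleen count was 0 without spleen control replicate 1, 1 without spleen control replicate 2, and 3 without any 1 of the lung libraries, which enter the fit through the shared estimate of the spread.

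**Figure D2:**
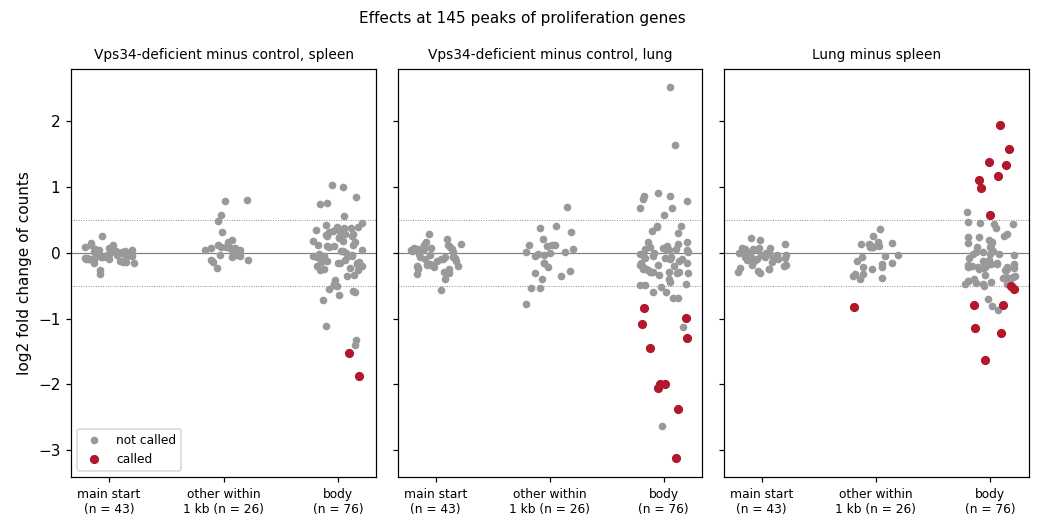
The log2 fold change at 145 peaks of proliferation genes, for Vps34 deficiency in spleen, Vps34 deficiency in lung and lung against spleen, split into main start peaks (n = 43), other peaks within 1 kb of a start (n = 26) and peaks in the body (n = 76). Each point is a peak, red points passed the test, and dotted lines mark a log2 fold change of 0.5 either side of 0; the red points lie in the body with the exception of 1 peak of Ccnd3 in the tissue panel.

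Cdk6, the cyclin D-dependent kinase that phosphorylates Rb1, had the most peaks of the set, 25 over a gene that spans chr5:3341485-3531008, and 5 of them were called lower in lung. The strongest lies in an intron 122.4 kb downstream of the main start peak (chr5:3466235-3466953) and holds the AP-1 match TGAGTCA printed above. It gave 5.77 and 4.67 CPM in spleen controls, 1.93, 1.45, 2.34 and 1.42 CPM in Vps34-deficient spleen, 9.38 and 9.13 CPM in lung controls and 1.66 and 1.93 CPM in Vps34-deficient lung. Controls lay above all Vps34-deficient libraries in both tissues, and both Vps34-deficient lung libraries lay within the range of the Vps34-deficient spleen libraries. The log2 fold change was -1.53 ± 0.26 in spleen (adjusted p = 0.00203) and -2.37 ± 0.34 in lung (adjusted p = 0.000139, edgeR's quasi-likelihood test in both), and the spleen call was lost without spleen control replicate 1. Nearer the start, at 29.1 kb, chr5:3373166-3373518 gave 1.81 and 2.34 CPM in spleen controls, 0.691, 0.606, 0.955 and 0.993 CPM in Vps34-deficient spleen, 5.45 and 7.95 CPM in lung controls and 1.33 and 1.93 CPM in Vps34-deficient lung. These are few counts. No Vps34-deficient library reached a control of its tissue. At peaks chosen by the test on the same libraries, such a separation of 2 from 2 lung libraries largely follows from that choice. The log2 fold change was -2.06 ± 0.41 in lung (adjusted p = 0.00331, edgeR), a call lost without lung control replicate 2 or lung Vps34-deficient replicate 1, and -1.32 ± 0.36 in spleen, where the adjusted p was 0.0634.

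Near the other end of Cdk6, at 159.2 kb, chr5:3503290-3503592 gave 2.58 and 2.75 CPM in spleen controls, 1.86, 2.42, 2.17 and 2.77 CPM in Vps34-deficient spleen, 7.09 and 7.80 CPM in lung controls and 2.00 and 1.72 CPM in Vps34-deficient lung. The lung controls stood alone, above the 8 other libraries, and the spleen genotypes overlapped. Its log2 fold change was -2.0 ± 0.34 in lung (adjusted p = 0.000848) and -0.21 ± 0.28 in spleen (adjusted p = 0.814, edgeR), and the difference between the tissues, tested as an interaction, was -1.79 ± 0.44 with an adjusted p of 0.350. At 150.5 kb, chr5:3494357-3495135 gave 14.5 and 16.2 CPM in spleen controls, 18.0, 16.2, 13.5 and 18.2 CPM in Vps34-deficient spleen, 19.8 and 34.0 CPM in lung controls and 14.3 and 11.2 CPM in Vps34-deficient lung. Its lung controls were far apart, and the log2 fold change of -1.09 ± 0.22 in lung (adjusted p = 0.00396, edgeR) lost its call without lung control replicate 2 or lung Vps34-deficient replicate 2. The peak at 14.7 kb (chr5:3358765-3358981) had a log2 fold change of -1.45 ± 0.42 in lung with an adjusted p of 0.0421. The other 20 Cdk6 peaks were not called in lung, and over all 25 the log2 fold change in lung was negative at 16 and positive at 9, with a median of -0.22. The nearest start of another coding gene, Fam133b, lies 40.4 kb or more from each of the 5 peaks.

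**Figure D3:**
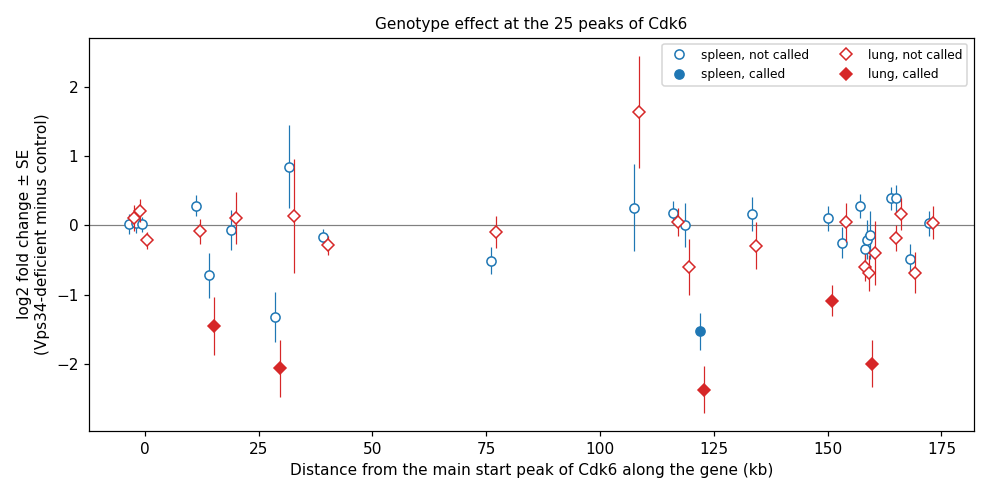
Log2 fold change ± SE of Vps34-deficient against control Tregs at the 25 peaks of Cdk6, against their distance in kb from the main start peak along the gene, with spleen as circles and lung as diamonds (offset sideways so that both show) and called peaks filled. The start lies near 0 in both tissues, and the filled points, 1 in spleen and 5 in lung, all lie below 0 and at least 14.7 kb from the start.

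Ccnd3 encodes cyclin D3, a partner of Cdk6 that is prominent in lymphocytes. Its peak at chr17:47564596-47564992 lies 28.7 kb upstream of the main start peak, in an intron of a longer transcript, and holds the AP-1 match TGACTCA printed above. It gave 2.41 and 3.02 CPM in spleen controls, 0.414, 1.21, 0.694 and 0.567 CPM in Vps34-deficient spleen, 3.27 and 4.93 CPM in lung controls and 0.499 and 0.429 CPM in Vps34-deficient lung. The controls did not overlap the Vps34-deficient libraries in either tissue. The log2 fold change was -1.88 ± 0.40 in spleen (adjusted p = 0.0152) and -3.12 ± 0.56 in lung (adjusted p = 0.00148, edgeR's quasi-likelihood test), the largest fall in lung among the 145 peaks, and the spleen call was lost without either spleen control. The other 15 peaks of Ccnd3 were not called for genotype in spleen or lung, and 10 of the 16 had a positive log2 fold change in spleen.

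Single peaks of a kinase inhibitor and a checkpoint gene and 2 peaks of Rb1 were also called lower in lung. Cdkn1a, whose product p21 inhibits cyclin-dependent kinases, had a peak in its intron at chr17:29094899-29095796 with 2 AP-1 matches. The edge of this peak lies 1118 bp from a start, just outside the 1 kb limit. It gave 15.3 and 20.3 CPM in spleen controls, 12, 13.4, 14.0 and 16.3 CPM in Vps34-deficient spleen, 17.4 and 26.3 CPM in lung controls and 11.5 and 10.7 CPM in Vps34-deficient lung. The genotypes overlapped in spleen and not in lung, where the log2 fold change was -0.99 ± 0.21 (adjusted p = 0.00692, edgeR). This lung call was lost in the fit of the lung libraries alone and without lung control replicate 2 or either lung Vps34-deficient library, and the Cdkn1a start peak itself was at -0.25 ± 0.30. In Bub1b, an intronic peak 3.9 kb from the start (chr2:118601913-118602191) gave 8.72 and 9.86 CPM in lung controls and 4.49 and 3.00 CPM in Vps34-deficient lung, against 5.25 and 5.08 CPM in spleen controls and 4.97, 3.15, 2.95 and 3.83 CPM in Vps34-deficient spleen. The Vps34-deficient libraries lay below the controls in each tissue, with a log2 fold change of -1.30 ± 0.30 in lung (adjusted p = 0.0110) and -0.49 ± 0.25 in spleen (adjusted p = 0.377, edgeR). In Rb1, the intronic peak chr14:73253421-73254216, 71.8 kb from the start, gave 6.33 and 6.73 CPM in spleen controls, 3.87, 4.61, 4.08 and 4.82 CPM in Vps34-deficient spleen, 13.1 and 15.3 CPM in lung controls and 8.32 and 7.50 CPM in Vps34-deficient lung. Both genotypes were higher in lung, and the Vps34-deficient libraries were below the controls in each tissue, with an average log2 fold change of -0.70 ± 0.15 (adjusted p = 0.00478, edgeR). The other Rb1 peak called lower in lung, chr14:73201525-73201803 at -1.99 ± 0.49, also lies within the coding gene Rcbtb2 and cannot be assigned to 1 of them.

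**Figure D4:**
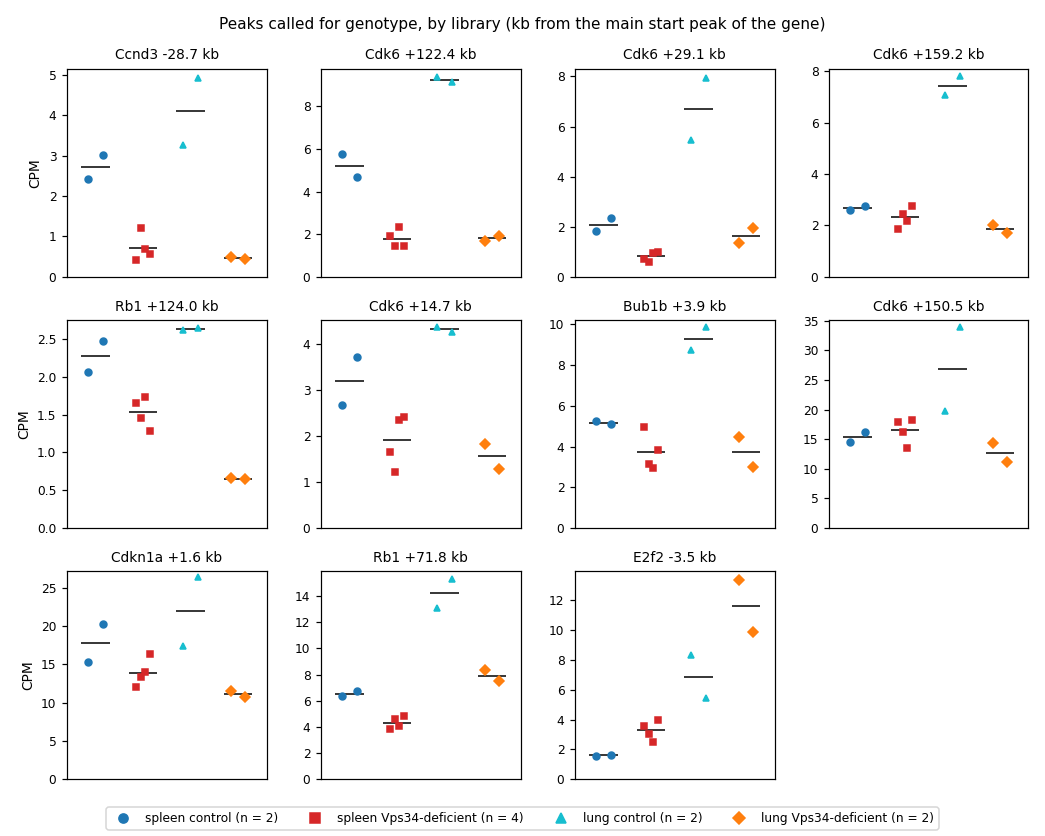
CPM by library at the 11 peaks of proliferation genes called for genotype in spleen, in lung or on average, with 1 point per library, a line at each group mean and the distance in kb from the main start peak of the gene in each title. Lung controls are the highest group at 10 peaks, and at the E2f2 peak the Vps34-deficient lung libraries are the highest.

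A single peak was called higher without Vps34, in an intron of E2f2, an activator E2F, 3.5 kb upstream of the main start peak (chr4:136177041-136177250). It gave 1.55 and 1.65 CPM in spleen controls, 3.59, 3.03, 2.52 and 3.97 CPM in Vps34-deficient spleen, 8.29 and 5.45 CPM in lung controls and 13.3 and 9.86 CPM in Vps34-deficient lung. Every Vps34-deficient library lay above both controls of its tissue. The average log2 fold change was 0.90 ± 0.20 (adjusted p = 0.00679, edgeR's quasi-likelihood test), with 1.02 ± 0.29 in spleen and 0.78 ± 0.28 in lung, neither of which was called alone. The E2f2 start peak and the other E2f2 peaks were not called for genotype.

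The AP-1 sequence was counted in the central 300 bases of these peaks. It was in 6 of the 10 peaks called lower without Vps34 in any of the genotype fits, in 19 of all 76 body peaks of the set (25%), in 14.7% of 76994 tested peaks over 1 kb from a coding start and in 32.4% of the 3192 such peaks called lower in lung. The E-box was in 1 of the 10 and in 5.58% of the 76994. The 10 peaks were chosen by their fold change, so these shares describe them and were not tested.

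Lung and spleen Tregs differed at 16 of the 145 peaks, after the genotypes were taken into account. Of these, 8 were higher in lung, where 18.4% of all tested peaks were called higher, and 8 were lower, where 6.51% were. Of the 76 body peaks 19.7% were called in either direction, against 28.9% of all tested peaks over 1 kb from a coding start, and of the 35 peaks of E2F and pocket protein genes 22.9%, against 24.9% of all tested peaks, so both lay below the background. The largest difference was at the same E2f2 peak 3.5 kb upstream of its start, with a log2 fold change of 1.93 ± 0.19 for lung against spleen (adjusted p = 5.57e-08, edgeR). Its lung libraries all lay above its spleen libraries in the values given above. Rbl1, which encodes the pocket protein p107, had an intronic peak (chr2:157147366-157148092) at 12 and 13.3 CPM in spleen controls, 9.81, 9.58, 13.1 and 11.1 CPM in Vps34-deficient spleen, 24.9 and 27.5 CPM in lung controls and 28.9 and 19.1 CPM in Vps34-deficient lung. All lung libraries lay above all spleen libraries, the genotypes overlapped in lung, and the log2 fold change was 1.10 ± 0.13 (adjusted p = 4.36e-07, edgeR). Another region of Ccnd3, 81.2 kb upstream of its main start peak (chr17:47512176-47512385), was 1.17 ± 0.17 higher in lung on the log2 scale, and the Rb1 peak at 71.8 kb and the Cdk6 peak at 29.1 kb described above were 0.99 ± 0.15 and 1.37 ± 0.28 higher. These last 2 peaks were lower without Vps34 and higher in lung than in spleen. The remaining peaks higher in lung were in Rb1 at 129.9 kb (1.57 ± 0.33), where Rcbtb2 overlaps, in Ccne2, which encodes cyclin E2, at 7.3 kb (1.34 ± 0.30), and in Cdk6 at 158.6 kb (0.57 ± 0.17).

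Peaks lower in lung lay in Rb1, Ccnd3, Cdk6 and E2f2, which also held peaks higher in lung, and in Cdc6 and E2f3, which did not. Rb1 had a peak 81.4 kb from its start (chr14:73243838-73244607) at 7.15 and 6.32 CPM in spleen controls, 7.73, 6.42, 5.56 and 6.38 CPM in Vps34-deficient spleen, 2.84 and 3.83 CPM in lung controls and 2.83 and 1.93 CPM in Vps34-deficient lung. The tissues did not overlap, and the log2 fold change was -1.22 ± 0.20 (adjusted p = 5.2e-05, edgeR). Ccnd3 had the only called peak within 1 kb of an annotated start, chr17:47598146-47598539, 4.8 kb downstream of its main start peak. It gave 11.3 and 11.1 CPM in spleen controls, 12.4, 13.7, 16.1 and 13.4 CPM in Vps34-deficient spleen, 7.63 and 8.10 CPM in lung controls and 7.15 and 5.79 CPM in Vps34-deficient lung, a log2 fold change of -0.83 ± 0.16 with no overlap of the tissues. An intronic peak of Cdc6 (chr11:98918217-98918580) was -0.80 ± 0.21 and that of Cdk6 at 133.8 kb was -0.79 ± 0.21. An intronic peak of E2f3 at 47.3 kb was -1.14 ± 0.39. Smaller falls, at Cdk6 116.6 kb (-0.51 ± 0.13) and at E2f2 9.4 kb downstream of its start (-0.56 ± 0.17), lost their call without lung Vps34-deficient replicate 2, that of E2f2 also without spleen Vps34-deficient replicate 4, and that of Cdk6 also with loess offsets (-0.47) and with a chromosome Y covariate (-0.50). The called Rb1 peak with the largest fall, -1.62 ± 0.61 at 27.0 kb, rests on under 2 CPM in every library and is listed at 0.0 CPM in lung control replicate 2. Among the main start peaks, 4 passed the adjusted p alone for tissue, with log2 fold changes of -0.31 ± 0.09 at Mcm2, -0.18 ± 0.05 at Pcna, -0.25 ± 0.09 at Ccnd3 and 0.22 ± 0.07 at Ccnb1. The start peaks of the 8 replication genes were lower in lung at 7, with a median of -0.11, against -0.07 for all peaks at coding starts.

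**Figure D5:**
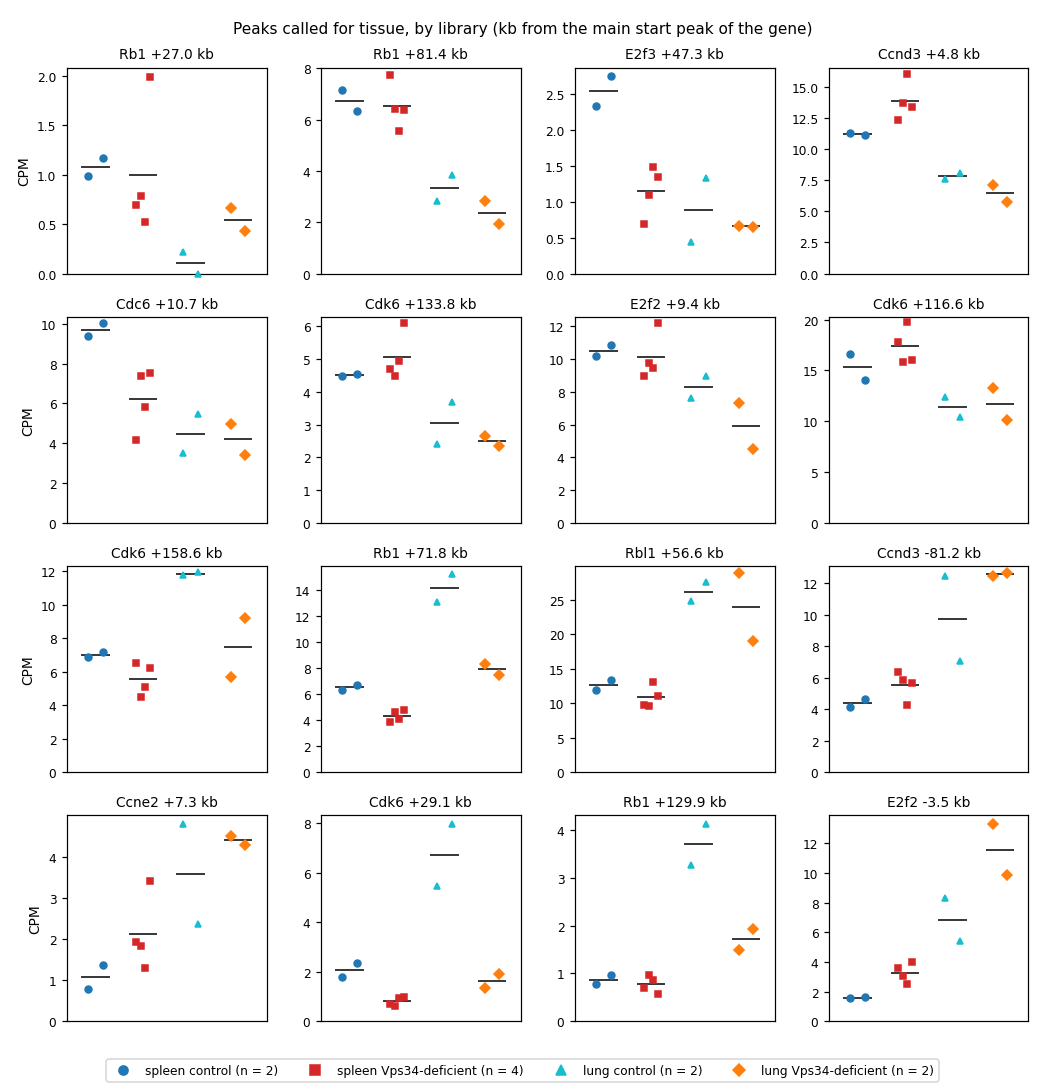
CPM by library at the 16 peaks of proliferation genes called for tissue, ordered from the lowest to the highest log2 fold change of lung against spleen, with 1 point per library, a line at each group mean and the distance in kb from the main start peak in each title. The upper 8 panels are lower in lung and the lower 8 higher, and the Rb1 peak at 27.0 kb lies at or below 1.99 CPM in all libraries.

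Whether the effect of Vps34 deficiency differed between lung and spleen was tested as an interaction. No peak of the set was called, nor was any of the 97109 tested peaks (0.0%) in edgeR's quasi-likelihood test, and DESeq2 called 0 of the 145 and 24 of all. An unadjusted p below 0.05 was reached by 12 of the 145 and by 7065 of all tested peaks. The larger number of calls in lung is therefore not shown to be a difference between the tissues.

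A further 59 genes of the same pathways, among them other origin, polymerase, centromere and DREAM complex genes, had 157 tested peaks. In spleen 0 were called higher and 2 lower, in lung 2 and 8, on average 2 and 9, and for tissue 21 and 7. In either direction these are 1.27%, 6.37%, 7.01% and 17.8% of the 157, against 1.46%, 4.96%, 7.57% and 24.9% of all tested peaks, so the list lay near or below the background. The largest fall in lung was at an intronic peak of Tfdp2, which encodes a dimer partner of E2F factors, at -3.18 in lung and -1.90 in spleen, followed by one in Gins1, a subunit of the replicative helicase complex, at -2.65 and -1.36. Of the 89 peaks within 1 kb of a start, 4 (4.49%) were called in lung, where 2.79% of all tested peaks at coding starts were. One of them, in Tfdp2 (chr9:96258523-96258780), was called higher in lung (adjusted p = 0.0130, edgeR) on 0 counts in both controls and 6 and 8 counts without Vps34, so no fold is given, against 36 to 72 counts in the spleen libraries.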

How the data were processed

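The members and the lists were chosen with earlier results of these data known. The authors trimmed paired reads, aligned them with BWA, removed duplicates, shifted read ends for the Tn5 insertion, kept nucleosome-free fragments, called peaks per sample with MACS2 (2.1.0.20150603 in the submitters' processing notes), kept those found in at least 50% of replicates of a group, merged peaks that overlapped by 100 bp and counted reads in them. The deposited values are whole-number counts per peak and library, not normalised. The study's methods name an older mouse assembly, but 44.4% of 93459 coding transcript starts of GENCODE M21 (GRCm38) lay in a peak, against 3.01% and 3.13% after shifts of the positions, so GRCm38 was used, with positions counted from 1. The methods give the spleen group sizes the other way round, and the labels were followed. Most counts were even (91.5% to 96.5% per library), as when both mates of a fragment are counted. Halved counts of replicate pairs differed by more than counting noise (a chi-square of 1.38 to 2.69 per degree of freedom). This cannot tell libraries of separate animals from repeat libraries of the same animal. Each library was counted as 1 sample. Peaks were filtered with filterByExpr and scaled with TMM factors in edgeR 4.0.16 (R 4.3.3). A quasi-likelihood model with 4 groups on all 10 libraries gave the genotype effects and the interaction, and a model with tissue and genotype gave the averaged effects. Calls needed an adjusted p (Benjamini-Hochberg) under 0.05 together with a log2 fold change beyond 0.5 in size. The SE is the fold change divided by the square root of the F statistic. The biological coefficient of variation was 17.8%. The text names the main start peak of genes chosen to show each role and up to 6 called peaks with the smallest p per effect and direction. A few more called peaks are given so that a gene's calls are complete. The procedure was tested on simulated data. Alternatives were other scalings, loess offsets, DESeq2 1.42.0, count filters, halved counts, a replicate block, a chromosome Y covariate, other membership distances, 1 tissue alone and leaving out each library.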

Additional observations from a re-analysis of the deposited data

How the results depend on the processing

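Of 521 refits of the 27 named effects at single peaks, 500 kept the call, 21 lost it and 0 reversed, and 19 of the 27 kept it throughout. The cause of the changes below was not tested. Leaving out 1 library at a time gave 0 to 3 peaks called lower and 0 to 1 higher in spleen, 3 to 11 lower and 0 to 3 higher in lung with 0 to 1 main start peaks called, and 6 to 10 lower and 1 to 3 higher on average. For tissue the range was 7 to 12 higher and 6 to 11 lower. The lung libraries alone gave 5 lower in lung. In lung, 1 peak was called higher under median-of-ratios scaling, loess offsets, DESeq2, a minimum of 20 counts and halved counts, and 1 main start peak was called with no count filter. On average, 2 peaks were called higher under loess offsets, DESeq2 and no fold change minimum. With no fold change minimum, 17 peaks were lower in lung than in spleen, and 1 main start peak was called on average and 4 for tissue. Deviations of same-numbered libraries from their group means correlated between -0.098 and 0.063. This cannot decide whether they share an animal, because the deviations in a group of 2 are mirror images. Chromosome Y CPM in spleen and lung was 56.9 and 67.6 for control replicate 1, and 7.03 and 12.8 for control replicate 2. For Vps34-deficient replicate 1 it was 9.88 and 21.4, and for replicate 2 it was 64.8 and 63.4. The tissue fit treated the libraries as independent. With the replicate block, spleen calls fell from 2 to 0, lung calls from 10 to 7, calls higher on average were 2 and calls lower for tissue 4, with those of Cdk6 at 116.6 kb and E2f2 at 9.4 kb lost. With 2 libraries in 3 of the 4 groups, the 95% interval of the lung genotype effect reached a log2 fold change of 0.5 at 11 of 43 start peaks.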
